A study of Mus musculus with 3 samples.

Results

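The enzymes described here make serine from a glycolytic intermediate, pass its side-chain carbon to folate, and use its backbone to make cysteine. They are encoded by 10 genes, Phgdh, Psat1, Psph, Shmt1, Shmt2, Mthfd2, Mthfd1l, Aldh1l2, Cth and Cbs. Each was taken by symbol from both deposited tables, keeping the row of highest summed level where a symbol had several. All 10 were found among the 45761 symbols that the tables share, each in 1 row. Their transcripts were measured by sequencing total RNA of RAW264.7 cells, a macrophage line raised from a mouse tumour that Abelson leukaemia virus had induced. The HD+LPS library came from cells at high density given bacterial lipopolysaccharide (LPS) at 500 ng/ml, starting 24 h after seeding and lasting 24 h. The HD library came from untreated high density cells and the LD library from untreated low density cells. All 3 cultures were kept in RPMI 1640 medium with 10% serum, 4 mM L-glutamine, penicillin and streptomycin. How many cells were seeded at each density, and when LD cells were harvested, the sources used here do not state. For the untreated HD cells no harvest time is listed with the samples either. Each group is 1 library of 1 tumour line, so no difference below has a replicate check and none was tested. The labels set HD against LD, to ask what changes with cell density, and HD+LPS against HD, to ask what LPS changes at high density.

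Serine is made from 3-phosphoglycerate in the cytosol by the dehydrogenase Phgdh, the aminotransferase Psat1 and the phosphatase Psph. Serine hydroxymethyltransferase, Shmt2 in mitochondria and Shmt1 in the cytosol, then splits serine into glycine and a one-carbon unit on tetrahydrofolate, which feeds purine and thymidylate synthesis. In transsulfuration, Cbs joins serine to homocysteine and Cth cleaves the product to cysteine, the limiting precursor of glutathione. In macrophages, serine synthesis and one-carbon metabolism are known to feed glutathione and methyl-group supply during activation by LPS. Several of these genes are known targets of ATF4, the transcription factor of the integrated stress response.

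Promoter windows, running from 250 bases before to 50 bases after a transcript start, were taken from RefSeq on GRCm38.p6 and matched by symbol for 8 of the 10 genes (9 windows). The windows of 4 genes are shown, 5′ to 3′ on the gene's strand. Psph was past 2-fold in HD+LPS over HD, Phgdh had the highest level of the set, Mthfd2 lay just under 2-fold in HD+LPS over HD, and Shmt1 was past 2-fold lower in HD over LD. Capitals mark matches of the antioxidant response element core, TGACNNNGC, the site of NRF2, read on either strand.
Psph: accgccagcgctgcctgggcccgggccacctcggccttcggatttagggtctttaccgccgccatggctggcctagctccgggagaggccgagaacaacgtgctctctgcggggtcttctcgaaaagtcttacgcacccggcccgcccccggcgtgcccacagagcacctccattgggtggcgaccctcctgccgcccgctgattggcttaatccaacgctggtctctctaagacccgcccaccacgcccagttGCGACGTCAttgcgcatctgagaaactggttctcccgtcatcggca
Phgdh: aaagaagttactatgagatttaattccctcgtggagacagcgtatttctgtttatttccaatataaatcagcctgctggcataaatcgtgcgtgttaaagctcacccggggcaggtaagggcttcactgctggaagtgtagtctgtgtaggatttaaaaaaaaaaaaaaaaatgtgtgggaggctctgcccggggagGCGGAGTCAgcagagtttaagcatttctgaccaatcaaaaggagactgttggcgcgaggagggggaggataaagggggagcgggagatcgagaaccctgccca
Mthfd2: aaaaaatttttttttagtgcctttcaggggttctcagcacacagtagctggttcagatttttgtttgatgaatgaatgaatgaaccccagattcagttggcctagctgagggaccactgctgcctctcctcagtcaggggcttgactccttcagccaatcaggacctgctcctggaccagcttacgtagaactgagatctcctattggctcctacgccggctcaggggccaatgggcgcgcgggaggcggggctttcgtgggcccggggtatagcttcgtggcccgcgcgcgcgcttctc
Shmt1: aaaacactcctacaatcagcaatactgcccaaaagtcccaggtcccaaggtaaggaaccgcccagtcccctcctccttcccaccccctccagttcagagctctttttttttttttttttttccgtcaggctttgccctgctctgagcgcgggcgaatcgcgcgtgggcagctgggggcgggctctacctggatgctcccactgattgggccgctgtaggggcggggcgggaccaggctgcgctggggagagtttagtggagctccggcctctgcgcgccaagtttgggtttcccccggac
The Psph window is chr5:129787204-129787503, that of Phgdh chr3:98339920-98340219, that of Mthfd2 chr6:83317555-83317854 and that of Shmt1 chr11:60811216-60811515, all on the minus strand. The GC content was 65.0% for Psph, 47.7% for Phgdh, 55.7% for Mthfd2 and 60.7% for Shmt1. The Mthfd2 window lies inside the annotated gene (83305704 to 83326011), and most of the Psph window lies inside Psph (129765558 to 129787443). The Psph window also covers the stretch that Psph shares with the neighbouring gene Cct6a.

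The core was found in 2 of the 8 genes, Psph and Phgdh, and in 12.4% of all 32851 windows. An E-box, CACGTG, was found in 1 gene, Cbs, and in 7.15% of all windows. The core of the C/EBP-ATF response element, TGATGNAA, which ATF4 binds, was found in none of the 8 genes and in 3.97% of all windows. Both strands were searched, and no 2 matches of different motifs overlapped in the windows of the genes listed here. A match is a run of letters and not a shown binding site, and the absence of one says only that these letters are not in these windows.

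The label of macrophage was checked against marker genes. Of 11 macrophage markers listed in the tables, 10 were at 1 FPKM or more in both comparisons (FPKM, fragments per kilobase of transcript scaled to library depth, lets levels of different genes be set side by side). They summed to 4301 FPKM in HD against 5051 in LD, and to 4443 in HD+LPS against 3912 in HD. These sums hide markers that differed in opposite directions. In HD+LPS against HD, Adgre1 was 75.5 against 18.2 FPKM, Itgam 80.1 against 23.9 and Cd14 1316 against 433. On the lower side, Lyz2 was 805 against 1311, Tyrobp 429 against 685 and Csf1r 114 against 165. Mrc1 was the marker under 1 FPKM, at 0.0330 in LD and 0 in the other libraries. All 4 epithelial markers were listed at 0. A listed 0 is a weak sign of absence here, because Mat2a, described below, was listed at 0 too. The 5 fibroblast markers summed to at most 0.0965 FPKM and the 4 lymphocyte markers to at most 0.600. Of 4 neutrophil markers, 1 reached 1 FPKM, Elane at 1.54 FPKM in HD and 0.640 in LD, and at 0.0954 in HD+LPS and 1.40 in HD. The part of these markers in the results was not tested, and in bulk RNA fewer cells of a type and less RNA per cell cannot be told apart. Nos2, encoding the inducible nitric oxide synthase that marks LPS-stimulated macrophages, was 111 FPKM in HD+LPS against 14.4 in HD, 7.69-fold. Without LPS, Nos2 was also 15.9 FPKM in HD against 0.974 in LD, 16.3-fold, so it does not mark LPS alone here. The other check genes for LPS were Ccl5 and Il1rn. Ccl5 was 719 FPKM in HD+LPS against 2.39 in HD, and 2.64 in HD against 2.40 in LD. Il1rn was 322 FPKM in HD+LPS against 11.7 in HD, and 12.8 in HD against 38.0 in LD. From the lowest values of the tables, 1 FPKM over 1 kilobase corresponded to about 16.9 fragments in HD and 16.5 in LD in the density table, and to 14.9 in HD+LPS and 18.1 in HD in the LPS table.

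The HD library stands in both tables, scaled separately, and its level of the 9 detected enzymes in the LPS table differed from that in the density table by -0.15 to 0.03 on the log2 scale (median -0.13). Aldh1l2 was the one that differed upward, and its locus also starts at a different base in the 2 tables (83476423 in the LPS table and 83483209 in the density table). Ratios were therefore made within a table, and the 2 comparisons share the HD library. A ratio is log2((FPKM + 1)/(FPKM + 1)), and a gene was called higher or lower at 2-fold or more on that scale, which understates the change of low genes. Genes at 1 FPKM or more in either library were counted as measured. Fold values are FPKM over FPKM, with a 95% interval from an exact conditional binomial (Clopper-Pearson) calculation on estimated fragment numbers. These intervals cover counting error only, not differences between cultures or copies made by PCR, and they rest on 1 transcript length per gene.

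Of the serine synthesis genes, Phgdh and Psat1 had high levels and Psph a lower one. Phgdh, which takes the first step, was 235 FPKM in HD and 232 in LD, and 256 in HD+LPS and 213 in HD. Psat1, which adds the amino group, was 200 FPKM in HD and 184 in LD, and 230 in HD+LPS and 183 in HD. Ranked by level in HD among the measured genes of the density table, Phgdh lay 3.36%, Psat1 4.03% and Psph 24.1% from the top. Psph, which removes the phosphate in the last step, was lower, at 33.2 FPKM in HD and 36.5 in LD. The 3 enzymes together summed to 469 FPKM in HD and 452 in LD, and to 570 in HD+LPS and 426 in HD.

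The 3 serine synthesis genes differed little between HD and LD. The HD over LD fold was 1.01 for Phgdh (0.981 to 1.05), 1.09 for Psat1 (1.06 to 1.13) and 0.909 for Psph (0.832 to 0.993). When libraries were scaled to equal sums without the 20 highest genes, the log2 ratios of Phgdh and Psat1 turned to -0.22 and -0.11, so no direction is given for them. In HD+LPS over HD, Phgdh was at 1.20-fold (1.16 to 1.24) and Psat1 at 1.26-fold (1.22 to 1.29). Psph stood apart from them, with a log2 ratio of 1.45. It was 84.5 FPKM in HD+LPS against 30.3 in HD, 2.79-fold (2.59 to 3.02). The authors' deposited test did not call Psph. The last step of the pathway thus had the largest ratio of the 3, and its level was still under those of Phgdh and Psat1 in every library. Psph (chromosome 5, 129765558 to 129787443) overlaps Cct6a, a chaperonin subunit gene, by 88 bases. Its locus in both tables runs on past the gene to 129846443 and takes in Cct6a. Cct6a was 150 FPKM in HD+LPS against 116 in HD.

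**Figure D1:**
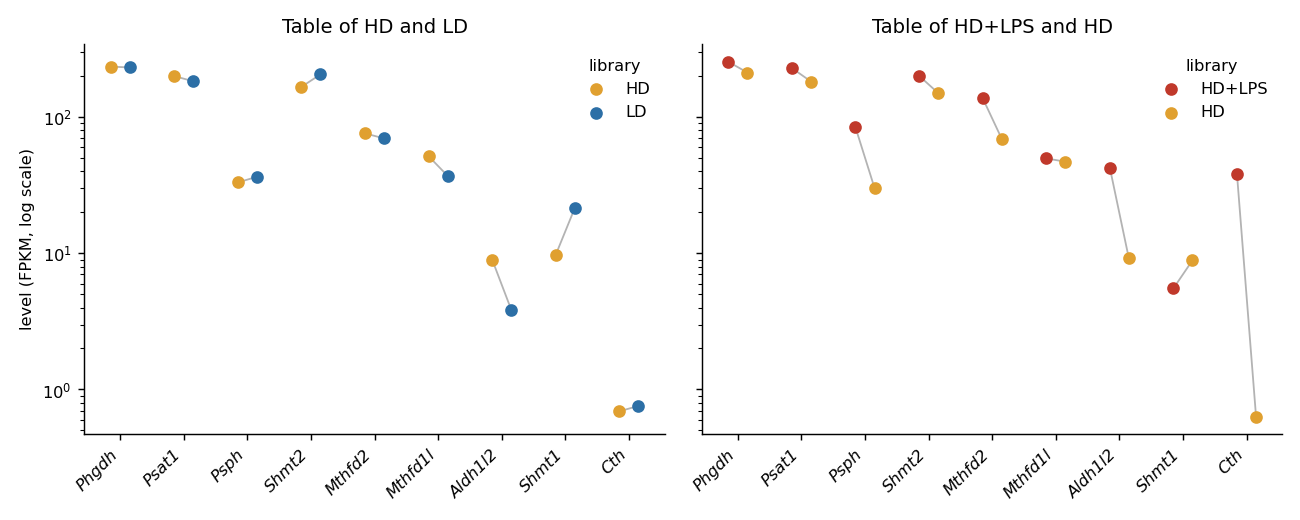
Levels of the 9 detected enzymes in FPKM on a log axis, from the table of HD and LD (left) and that of HD+LPS and HD (right). Each point is 1 library and grey lines join the 2 libraries of a table. Cth was 38.1 FPKM in HD+LPS and 0.631 in HD, the longest line, while Phgdh ranged from 213 to 256 FPKM; Cbs, listed at 0, is not drawn.

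Of the mitochondrial one-carbon enzymes, Shmt2 had the highest level in every library, followed by Mthfd2 and Mthfd1l. Shmt2, which feeds serine carbon into the mitochondrial folate pool, was 167 FPKM in HD and 206 in LD, and 202 in HD+LPS and 151 in HD. Mthfd2, the dehydrogenase and cyclohydrolase that oxidises methylene-tetrahydrofolate, was 76.1 FPKM in HD and 69.9 in LD, and 138 in HD+LPS and 69.5 in HD. Mthfd1l, the synthetase that releases formate for export, was 51.7 FPKM in HD and 37.1 in LD, and 49.9 in HD+LPS and 47.1 in HD. Mthfd2 was thus near 2-fold in HD+LPS over HD, while Mthfd1l, the next enzyme, was 1.06-fold (1.01 to 1.11). The Mthfd2 fold was 1.99 (1.89 to 2.09) and its log2 ratio 0.98, which left it just under the 2-fold limit. Shmt2 was at 1.34-fold (1.29 to 1.39) in HD+LPS over HD and at 0.809-fold (0.783 to 0.837) in HD over LD. Shmt2 (chromosome 10, 127517123 to 127522444) shares 32 bases with Ndufa4l2, which was under 1 FPKM in every library. For Mthfd1l the density comparison gave the larger value, 1.40-fold (1.32 to 1.47) in HD over LD. Mthfd1l overlaps 3 predicted or small RNA gene models, Gm16074, Gm40591 and Gm25515.

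Aldh1l2, the mitochondrial enzyme that oxidises formyl-tetrahydrofolate to carbon dioxide and yields NADPH, was the only measured member past 2-fold higher in both comparisons. It was 8.98 FPKM in HD against 3.85 in LD, 2.33-fold (2.07 to 2.63), and 42.7 FPKM in HD+LPS against 9.18 in HD, 4.65-fold (4.34 to 4.99). Its log2 ratios were 1.04 and 2.10. The HD over LD ratio lay near the limit, at 0.84 with equal sums and 0.66 with a pseudocount of 5 FPKM. Aldh1l2 was the lowest of the 4 mitochondrial enzymes in every library. Among all measured genes its level lay 18.6% from the top in HD+LPS against 57.2% in HD. The gene (chromosome 10, 83487447 to 83534146) overlaps Gm51778, a long noncoding RNA, and without strand information in the sources used here their reads cannot be told apart. In the authors' deposited table, p = 0.0101 and q = 0.627 for HD over LD, and p = 0.00235 and q = 0.230 for HD+LPS over HD.

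Shmt1, the cytosolic isozyme, had ratios opposite to those of Aldh1l2. It was 9.77 FPKM in HD against 21.6 in LD, 0.453-fold (0.405 to 0.505), with a log2 ratio of -1.07, which was -0.85 with a pseudocount of 5 FPKM. It was 5.53 FPKM in HD+LPS against 8.88 in HD, 0.622-fold (0.529 to 0.729), with a log2 ratio of -0.60, within 2-fold. Shmt1 was the only measured member lower in HD+LPS than in HD. Its locus in both tables (chromosome 11, 60738201 to 60811265 in the LPS table) also spans Top3a and Smcr8, which do not overlap the gene itself (60788897 to 60811265).

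The balance of mitochondrial over cytosolic enzyme is a ratio of FPKM within 1 library, in which the scaling of the library cancels. Shmt2 over Shmt1 was 17.1 (15.6 to 18.8) in HD and 9.57 (8.96 to 10.2) in LD. In the LPS table it was 36.5 (32.0 to 41.7) in HD+LPS and 17.0 (15.4 to 18.7) in HD. Mthfd1, which carries the same folate steps in the cytosol as Mthfd2 and Mthfd1l in mitochondria, was 35.0 FPKM in HD and 48.7 in LD, and 24.6 in HD+LPS and 31.9 in HD. Mthfd2 over Mthfd1 was 2.17 (2.05 to 2.30) in HD and 1.43 (1.36 to 1.52) in LD, and 5.63 (5.28 to 6.01) in HD+LPS and 2.18 (2.05 to 2.31) in HD. Mthfd1l over Mthfd1 was 1.48 (1.39 to 1.56) in HD and 0.760 (0.718 to 0.805) in LD, and 2.03 (1.89 to 2.17) in HD+LPS and 1.48 (1.39 to 1.56) in HD. All 3 ratios were higher in HD than in LD and higher in HD+LPS than in HD, and their counting intervals did not overlap within a table. They were not among the planned results. In HD over LD, Shmt2 itself was lower (0.809-fold), and Shmt1 more so (0.453-fold). Mthfd2l, a relative of Mthfd2 left out of these ratios, was 3.73 FPKM in HD and 4.76 in LD, and 4.87 in HD+LPS and 3.29 in HD. The ratios for Mthfd2 and Mthfd1l share Mthfd1 and are not independent.

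**Figure D2:**
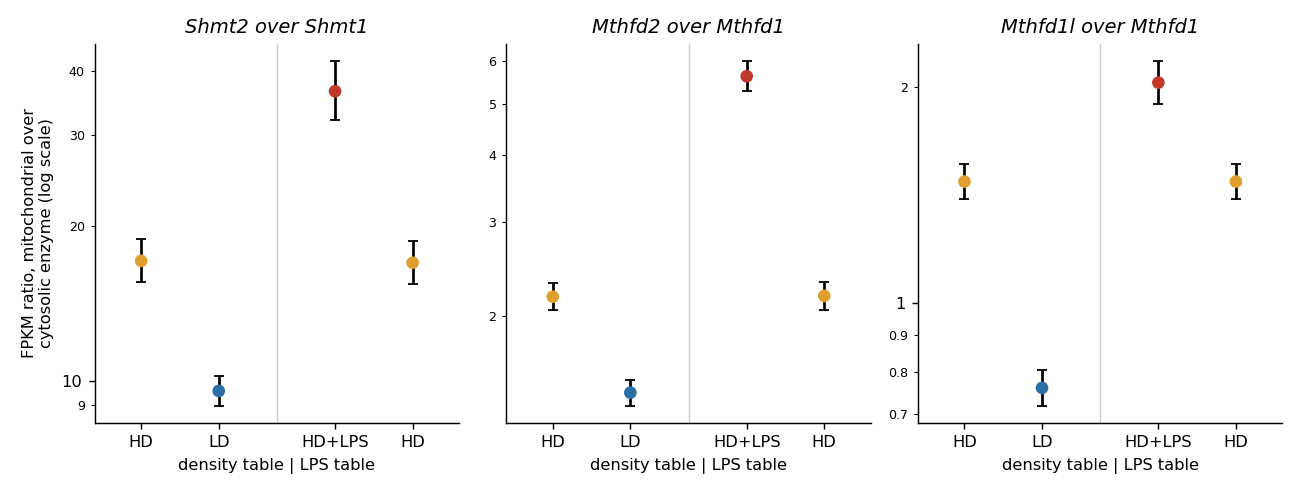
FPKM of a mitochondrial enzyme over that of its cytosolic counterpart in each library, on log axes, with 95% counting intervals; the grey line parts the table of HD and LD from that of HD+LPS and HD. Shmt2 over Shmt1 was 36.5 in HD+LPS against 17.0 in HD, and 17.1 in HD against 9.57 in LD, and the other ratios had the same order.

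Of the transsulfuration genes, Cth (chromosome 3, 157894248 to 157925081) had the largest ratio of all 10 members. The cystathionine gamma-lyase that it encodes also makes hydrogen sulfide. Cth was 38.1 FPKM in HD+LPS against 0.631 in HD, which corresponded to about 1032 and 20.7 fragments and to 60.4-fold (39.2 to 98.4). Its log2 ratio of 4.58 ranked 31st among 10668 measured genes. At low levels the density comparison could show little: Cth was 0.692 FPKM in HD and 0.757 in LD, 0.914-fold (0.481 to 1.73), and was not counted as measured there. Cth had the lowest level of the 9 detected members in HD and LD, and in HD+LPS it stood above Shmt1 and below Aldh1l2. In the authors' deposited table, Cth has p = 0.0446 and q = 0.834 for HD+LPS over HD. Cbs (chromosome 17, 31612623 to 31637233), which catalyses the step before Cth, was listed at 0 in every library. Mat2a, which makes S-adenosylmethionine in nearly every cell, was also listed at 0, so no level is given for either.

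By count, 1 of 8 measured members was 2-fold or more higher in HD over LD (Aldh1l2) and 1 lower (Shmt1), against 3.54% and 0.918% of 10564 measured genes. In HD+LPS over HD, 3 of 9 were higher (Cth, Aldh1l2 and Psph) and 0 lower, against 8.71% and 5.81% of 10668 genes. Cth passed the limit of 1 FPKM only through HD+LPS, so its place among the 9 was tied to its being high there. Cbs passed in neither comparison. The median log2 ratio of the measured members was 0.07 in HD over LD, beside 0.01 over all measured genes, and with equal sums it was -0.16, beside -0.20. It was 0.42 in HD+LPS over HD, beside 0.03. Of all genes called in HD over LD, 79.4% were higher, and 51.7% with equal sums. The authors' deposited tables rest on a test of 2 single libraries and call few of their 49850 and 49971 rows. No member is called in either comparison, which says little about the members where so few loci are called.

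**Figure D3:**
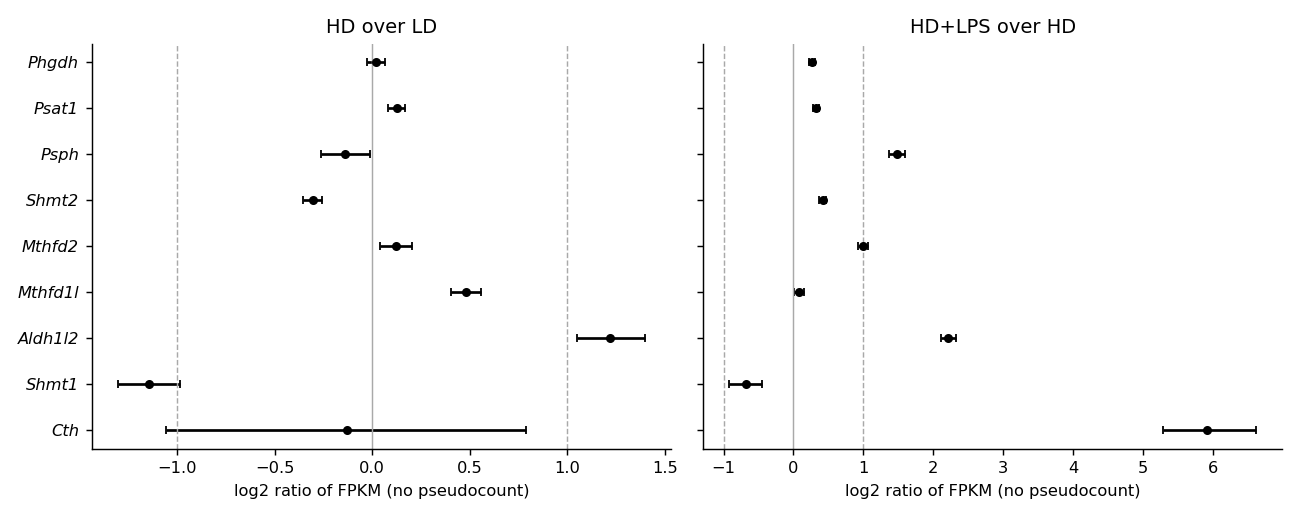
Log2 ratios of FPKM, with no pseudocount, of the 9 detected enzymes in HD over LD (left) and HD+LPS over HD (right), with 95% counting intervals; dashed lines mark 2-fold. Cth lies at 5.92 in HD+LPS over HD and spans 0 in HD over LD, and Aldh1l2 is past the dashed line on the higher side in both panels.

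The order of levels was much the same in each library. Phgdh was first in all of them, and Psat1 stood above Shmt2 in HD+LPS and HD and below it in LD. Psph and Mthfd1l lay close together in LD, at 36.5 and 37.1 FPKM. In HD+LPS, Psph, at 84.5 FPKM, stood above Mthfd1l, at 49.9. Shmt1 and Aldh1l2 were near each other in HD, at 9.77 and 8.98 FPKM in the density table and 8.88 and 9.18 in the LPS table, so their order there was not settled.

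The genes whose pattern was most like that of Cth were sought by Euclidean distance over the 2 log2 ratios from 3 libraries. There were 6558 candidates, coding genes that reached 10 FPKM in some library and were above 0 in each. The nearest was Oasl2, at a distance of 0.077, with 30.5 FPKM in HD+LPS against 0.292 in HD. Next came Usp18 at 0.41, Xaf1 at 0.43, Ccrl2 at 0.43 and Osbp2 at 0.48. Oasl2, Usp18 and Xaf1 are known as interferon-stimulated genes, and Ccrl2 encodes a chemerin-binding receptor. The ratios carry the pseudocount, which draws genes of low level toward 0. Cth was not counted as measured in HD over LD, and Oasl2 was 0.321 FPKM in HD and 0.442 in LD. Nearness is therefore not a like fold in FPKM: Ccrl2 was 71.5 FPKM in HD+LPS against 2.82 in HD. With only 2 ratios per gene the distance describes size and direction on that scale and nothing further.

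The other genes around the pathway were described by lists. Among 12 measured genes of serine and glycine handling, the median log2 ratio in HD+LPS over HD was 0.15. In that comparison 3 were higher and 0 lower, against 8.71% and 5.81% of all measured genes. All 3 are amino acid transporters. Slc1a4, an exchanger of alanine, serine and cysteine, was 4.22 FPKM in HD+LPS against 1.14 in HD. Slc6a9, the glycine transporter GLYT1, was 26.4 FPKM in HD+LPS against 11.8 in HD, and it overlaps Ccdc24. Slc38a1, a glutamine carrier, was 39.3 FPKM in HD+LPS against 18.6 in HD. With a pseudocount of 5 FPKM, 0 of the 3 passed 2-fold. In HD over LD, 0 of 11 measured genes of this list were past 2-fold in either direction. Of all measured genes, 3.54% were higher and 0.918% lower there.

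The rest of the folate cycle was within 2-fold throughout: 0 of 11 measured genes in HD+LPS over HD and 0 of 12 in HD over LD were past it, with medians of 0.14 and -0.37. Thymidylate synthase Tyms, which spends a one-carbon unit to make dTMP, was 12.4 FPKM in HD and 22.9 in LD, a log2 ratio of -0.83. Of the methionine cycle and its salvage, 0 of 14 measured genes were past 2-fold in either comparison. The medians were -0.14 in HD+LPS over HD and -0.21 in HD over LD. Over all measured genes, 8.71% were higher and 5.81% lower in HD+LPS over HD, and 3.54% and 0.918% in HD over LD. Beside such shares, counts of 0 in lists this short say little. Tyms was chosen for description after its values were seen.

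Among 18 measured genes of cysteine, sulfide and glutathione metabolism, the median log2 ratio in HD+LPS over HD was -0.05. In that comparison 3 were higher and 1 lower, against 8.71% and 5.81% of all measured genes. The cystine importer has both its subunits among the higher genes. Slc7a11, the transport subunit, was 21.7 FPKM in HD+LPS against 7.98 in HD, 2.71-fold (2.54 to 2.90), and Slc3a2, its heavy chain, was 186 FPKM in HD+LPS against 88.7 in HD, 2.10-fold (2.02 to 2.18). Sqor, which oxidises hydrogen sulfide in mitochondria, was 32.3 FPKM in HD+LPS against 11.1 in HD. Gclc, the catalytic subunit of the enzyme that starts glutathione synthesis from cysteine, was lower, at 9.54 FPKM in HD+LPS against 21.5 in HD, 2.25-fold lower. The list lay on both sides: of the 18 measured genes, 8 had log2 ratios above 0 and 10 below 0. Of those within 2-fold on the log2(FPKM + 1) scale, 3 with higher levels in HD+LPS follow, then others with lower levels. Gclm, the partner subunit of Gclc, was 41.8 FPKM in HD+LPS against 24.8 in HD, 1.69-fold (1.60 to 1.78). Glutathione synthetase Gss was 25.1 FPKM in HD+LPS against 18.0 in HD, and cysteine dioxygenase Cdo1 was 1.29 FPKM in HD+LPS against 0.459 in HD, 2.82-fold (1.44 to 5.83). The Cdo1 values rest on about 30.7 fragments in HD+LPS and 13.2 in HD. On the lower side, Csad was 2.03 FPKM in HD+LPS against 4.34 in HD, and Gsr 20.3 against 33.5. Gclm, Gss, Cdo1, Csad and Gsr were named after their values were seen. In HD over LD, 1 of 17 was higher, the kynurenine aminotransferase gene Kyat1 at 3.16 FPKM in HD and 0.868 in LD, and 0 were lower. Of all measured genes, 3.54% were higher and 0.918% lower there. With a pseudocount of 5 FPKM, neither Gclc nor Kyat1 passed 2-fold.

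The purine synthesis genes, some of which take up formyl groups, were mostly within 2-fold. In HD+LPS over HD 0 of 11 measured were higher and 1 lower (median -0.08), against 8.71% and 5.81% of all measured genes. In HD over LD 1 was higher and 0 lower (median -0.20), against 3.54% and 0.918%. The same gene accounts for both counts. Adssl1, a muscle-type adenylosuccinate synthase that uses no one-carbon unit, was 30.3 FPKM in HD+LPS against 80.1 in HD, and 88.5 in HD against 41.3 in LD. With equal sums, 0 genes were higher in HD over LD.

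The last list holds regulators of these genes together with other ATF4 targets. In HD+LPS over HD, 6 of its 14 measured genes were higher and 1 lower, with a median of 0.66, against 8.71% and 5.81% of all measured genes. Of the 6, Ddit3, Trib3 and Asns are known targets of ATF4, and Atf4, Myc and Eif2ak2 are regulators. With a pseudocount of 5 FPKM, 4 were higher, without Myc and Eif2ak2. Atf4 was 460 FPKM in HD+LPS against 171 in HD, 2.69-fold (2.61 to 2.78). Ddit3 and Trib3 had log2 ratios of 2.22 and 1.98, and Asns, the asparagine synthetase, was 254 FPKM in HD+LPS against 84.6 in HD. Eif2ak2, the double-stranded RNA kinase, was at 1.26. Myc was 5.01 FPKM in HD+LPS against 0.690 in HD, while Mycn, the family member of high level in these cells, was 302 FPKM in HD+LPS against 633 in HD. In HD over LD, Ddit3 (1.79) and Trib3 (1.46) were the 2 of 13 past 2-fold, where 3.54% of all measured genes were higher. Atf4 was 188 FPKM in HD against 157 in LD. Ddit3 overlaps Mars1 and Mbd6, Eif2ak2 overlaps 2 gene models, and Kyat1 and Slc38a1 overlap 1 each. Atf4, Eif2ak2 and Mycn were named after their values were seen.

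**Figure D4:**
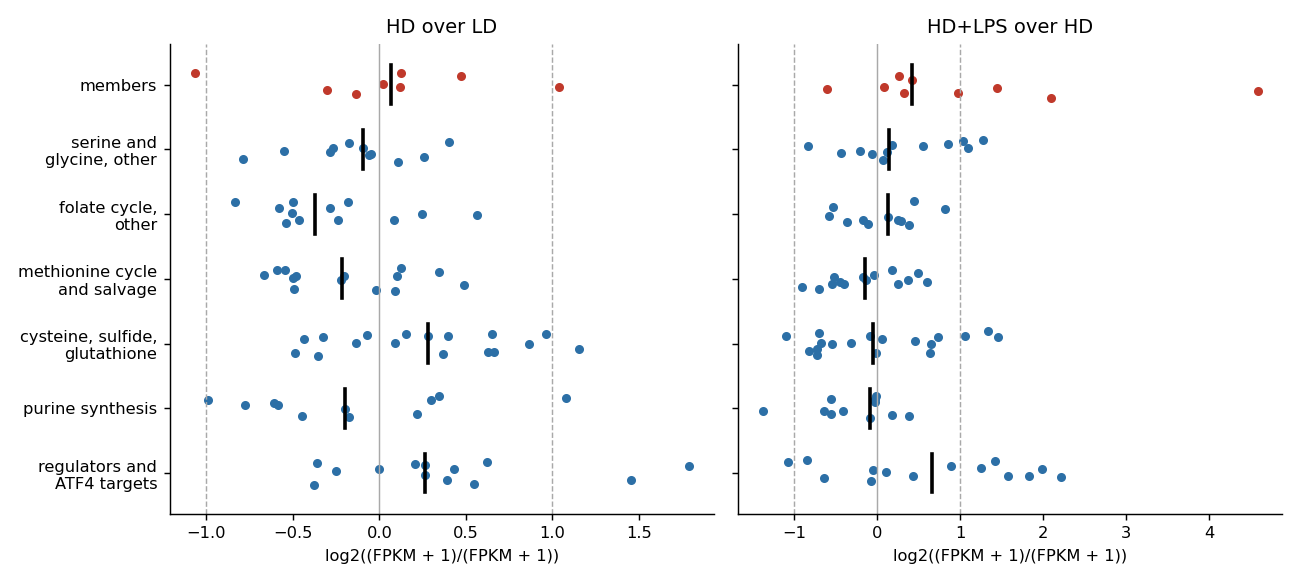
Log2((FPKM + 1)/(FPKM + 1)) of each measured gene, by list, in HD over LD (left) and HD+LPS over HD (right). Points are genes, black bars are list medians and dashed lines mark 2-fold; members are red, with medians of 0.07 and 0.42, and the list of regulators and ATF4 targets has medians of 0.27 and 0.66.

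The ATF4-type core TGATGNAA was found in the promoter windows of 7 of the 65 measured list genes that had a window, members aside. It was found in 3.97% of all 32851 windows, counted by window and not by gene. In HD+LPS over HD, 5 of the 7 were 2-fold or more higher. So were 5 of the 58 genes without a match, whose log2 ratios ran from -1.37 to 2.22. The lists hold known ATF4 targets, Trib3 and Asns among them, so nothing is read from these shares. The matches are shown in capitals with 20 bases of flank, 5′ to 3′ on the gene's strand, so that a match on the other strand appears as its reverse complement. They are ordered by the log2 ratio in HD+LPS over HD, which was 1.98 for Trib3, 1.57 for Asns, 1.46 for Sqor, 1.34 for Slc7a11, 1.28 for Slc1a4, 0.64 for Got1 and 0.06 for Chac1.
Trib3: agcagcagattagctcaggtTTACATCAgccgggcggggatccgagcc
Asns: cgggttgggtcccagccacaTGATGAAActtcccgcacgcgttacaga
Sqor: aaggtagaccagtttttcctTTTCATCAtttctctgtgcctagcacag
Slc7a11: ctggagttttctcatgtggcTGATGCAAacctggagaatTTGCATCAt
Slc1a4: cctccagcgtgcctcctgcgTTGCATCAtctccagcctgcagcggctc
Got1: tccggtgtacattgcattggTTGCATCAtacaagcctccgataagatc
Chac1: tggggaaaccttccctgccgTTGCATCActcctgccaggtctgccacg
Trib3 lies at chr2:152344019-152344066, Asns at chr6:7693205-7693252, Slc7a11 at chr3:50443652-50443699, Slc1a4 at chr11:20332690-20332737 and Got1 at chr19:43524680-43524727, all on the minus strand of GRCm38.p6. Sqor (chr2:122771550-122771597) and Chac1 (chr2:119351029-119351076) are on the plus strand. Slc7a11 holds 2 matches in its window. Chac1, a glutathione-degrading enzyme, holds a match and was 2.91 FPKM in HD+LPS against 2.76 in HD, 1.05-fold (0.756 to 1.47).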

How the data were processed

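RNA from 3 libraries of RAW264.7 cells (HD+LPS, HD and LD, 1 each) was sequenced after extraction with RNAiso Plus and a standard Illumina preparation, per the labels' protocols. Tools listed in the submitters' processing notes are Cuffdiff, TopHat2, fastp and FastQC, without versions, beside the builds mm10 and GRCm38. The authors deposited 2 tables, of 49850 and 49971 rows, with the columns of a Cuffdiff gene test: FPKM of 2 libraries on Cuffdiff's scale, and a p-value and a q-value per locus, per the file headers. No column of sample values was left unused. For the annotation and the strand setting, nothing is given in the sources used here. Cuffdiff divides reads between overlapping transcripts, and its scale differs between tables, so no ratio was made across them.

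Rows without a symbol were set aside (1154 and 1233), and rows naming several symbols were left out of counts. A gene was measured if either library reached 1 FPKM and its status was not a failure, 10564 for density and 10668 for LPS. Ratios used a pseudocount of 1 FPKM. Fragment numbers were estimated from the median of FPKM times kilobases between 0.035 and 0.09 in single-transcript GENCODE M21 genes of 1000 bases or more, read as 1 fragment (196 to 221 values per library), and from the longest protein-coding transcript of a gene. Depth in total reads is unknown. The text names all 10 members, up to 4 genes past 2-fold per list and comparison, and 5 genes nearest to Cth. Outside this rule it names Mthfd1, Mthfd2l, Mat2a, overlapping genes, marker and check genes, and the genes with an ATF4-type match. Genes marked above as named or chosen after their values were seen also lie outside it. The members and lists were chosen with earlier results of these data known. Alternatives were 7 settings of pseudocount, minimum, scaling and row choice, 1 strand setting for motifs, and 1 setting added after the data were seen. Scripts ran in Python 3.11.15 with pandas 2.3.3, numpy 2.4.6 and scipy 1.17.1, and calls, fragment steps and motif searches were tested on simulated data.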

Additional observations from a re-analysis of the deposited data

How the results depend on the processing

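No paired analysis was possible because each group has 1 library, and for the same reason no library could be left out. The counts of members in HD+LPS over HD, 3 higher and 0 lower, were the same under all 8 alternatives, and Mthfd2 ranged from 0.93 to 0.99 and Cth from 2.94 to 5.92 on the log2 scale. In HD over LD the single higher and lower members were borderline. With a pseudocount of 5 FPKM, 0 members were higher and 0 lower (Aldh1l2 at 0.66 and Shmt1 at -0.85). With sums made equal after leaving out the 20 highest genes, the median of all measured genes was -0.20 in place of 0.01, 0 members were higher (Aldh1l2 at 0.84), 1 gene of serine handling and 1 of the folate cycle were lower, and 0 purine genes were higher and 2 lower. That scaling also turned the sign of Phgdh (-0.22), Psat1 (-0.11) and Mthfd2 (-0.11) in HD over LD, so no direction is given for them there, and it took the share of calls that were higher to 51.7% against 79.4%.

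With a pseudocount of 0.1 FPKM, 2 cysteine genes were higher and 1 purine gene lower in HD over LD, and 1 serine gene and 2 cysteine genes were lower and 4 cysteine genes higher in HD+LPS over HD. A pseudocount of 5 FPKM left 0 cysteine genes higher in HD over LD, and 0 serine genes higher and 0 cysteine genes lower in HD+LPS over HD. A minimum of 5 FPKM left 0 cysteine genes higher in HD over LD. With no pseudocount, over genes above 0 in both libraries, 2 cysteine genes were higher and 1 purine gene lower in HD over LD, and 1 serine and 3 cysteine genes were lower and 4 cysteine genes higher in HD+LPS over HD. On the sense strand only, 0 members held the antioxidant response element core. In each of these the cause was not tested, beyond the smaller or larger weight of low values that a pseudocount or minimum sets by construction.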
